A study of Mus musculus with 2 samples.

Results

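The myelin and Schwann cell genes Mbp, Pmp22, Prx, Mag, Cnp, S100b, Sox10 and Egr2 were examined in young leg muscle. Members were all probes that the platform annotation names for 1 of these 8 genes, taken by symbol and with no filter on their values, though the genes themselves were chosen with earlier results of these data known. This gave 10 probes of 6 genes, out of 23978 named probes of 16593 genes. Prx, which encodes periaxin of the myelin sheath, and Sox10, a transcription factor of the Schwann cell lineage, were not analysed here. The DHT group was tibialis anterior muscle, a muscle of the shin, of 10-day-old C57/BL6 mice given a subcutaneous dose of DHT, taken here to mean the androgen dihydrotestosterone, and sampled 24 h later. The vehicle group was the same muscle of mice of the same strain and age, sampled at the same time after vehicle alone. A group was a single array with no replicate (n = 1), and the labels do not say how many animals an array held or their sex. The series title concerns sex hormones and the pool of adult muscle stem cells.

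Schwann cells wrap the axons of peripheral nerves, and those that form myelin wind their membrane around an axon in compact layers. Sox10 keeps the lineage and, with Egr2, turns on the genes of myelin proteins and lipids. Muscle holds the ends of motor and sensory nerves, so RNA of Schwann cells is a small share of muscle RNA. RNA of the axons themselves lies mostly in cell bodies in the spinal cord and ganglia, outside the muscle. In whole muscle, fewer Schwann cells and less RNA per cell cannot be told apart.

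Promoter sequences are shown for Mag and Cnp. Among the 6 genes of the set with a promoter window, these were the ones whose windows held the SOX motif searched. The differences of Mag and Cnp had opposite signs. Mbp and Sox10 had no window here and were not searched. The windows are the 250 bases before the RefSeq transcript start in build GRCm38.p6, on the gene's strand and 5′ to 3′, with the motif in capitals. It lies on the opposite strand in Mag (chr7:30914923-30915172, minus strand) and on the same strand in Cnp (chr11:100574689-100574938, plus strand).
Mag: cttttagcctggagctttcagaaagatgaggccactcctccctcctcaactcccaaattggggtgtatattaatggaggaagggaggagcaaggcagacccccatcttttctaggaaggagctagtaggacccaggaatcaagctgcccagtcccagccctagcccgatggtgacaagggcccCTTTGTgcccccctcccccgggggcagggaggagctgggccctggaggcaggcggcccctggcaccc
Cnp: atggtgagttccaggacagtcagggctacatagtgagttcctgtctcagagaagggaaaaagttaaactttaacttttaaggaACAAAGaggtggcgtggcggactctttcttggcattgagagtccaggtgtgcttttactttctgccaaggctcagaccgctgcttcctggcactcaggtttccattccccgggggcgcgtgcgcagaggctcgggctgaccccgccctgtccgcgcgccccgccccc

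The SOX motif ACAAAG was searched on both strands. It began 67 bases before the start in the Mag window shown, which overlaps another Mag window with the same match. In the Cnp window it began 167 bases before the start. Matches were found in 3 of the 15 windows of the 6 genes with an entry, and in 16.5% of all 32851 windows. The EGR motif GCGNGGGCG, also searched on both strands, was in 0 of the 15 windows and in 4.70% of all windows. With no EGR match, no match of one motif overlapped one of the other. A match is a description of these letters and not a binding site.

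No measured gene of the set differed between the arrays by 1.5-fold, though Mag did with the arrays scaled to equal medians and on the deposited signals as they stand. A gene was measured if a probe had a detection p under 0.01 on at least 1 array, where the detection p compares a probe with the array's background. Of the 8 genes, 5 were measured, Mbp, Pmp22, Mag, Cnp and Egr2, each on both arrays. Of these, 0 were higher and 0 lower by 1.5-fold on the DHT array, where 29.2% of all 8815 measured genes passed 1.5-fold, 13.4% higher and 15.8% lower. Among the 7971 genes detected on both arrays, as these 5 were, 25.4% passed, 12.0% higher and 13.4% lower. Without background correction 0 of the 5 passed as well, where 15.2% of all measured genes did, 6.74% higher and 8.43% lower. The median log2 difference, DHT minus vehicle, was 0.16 over the 5 genes and -0.01 over all measured genes. Mbp and Mag, at opposite ends, both lay just inside the 1.5-fold threshold of 0.58 on the log2 scale.

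Differences are of log2 values after background correction and quantile normalization. With 1 array per group they carry no error between animals and no test. As a yardstick within the arrays, the SD between the log2 differences of several probes for 1 gene was 0.26, pooled over 1967 genes. Of the set's 8 probes detected on both arrays, 4 had a difference larger than that SD. The whole DHT array was dimmer than the vehicle array. The lowest detected signals were 180.2 on the DHT array and 190 on the vehicle array, and the log2 signal ratio of all measured genes had a median of -0.21 before normalization. On these raw signals the brighter probes of Pmp22 (-0.05) and Cnp (-0.12) and the probe of Egr2 (-0.17) were slightly lower on the DHT array. Each was lower by less than that median, so their sign depends on the scaling. The second probes of Pmp22 and Cnp were higher on the DHT array in raw signal, with ratios to the vehicle array of 1.08 and 1.06.

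**Figure D1:**
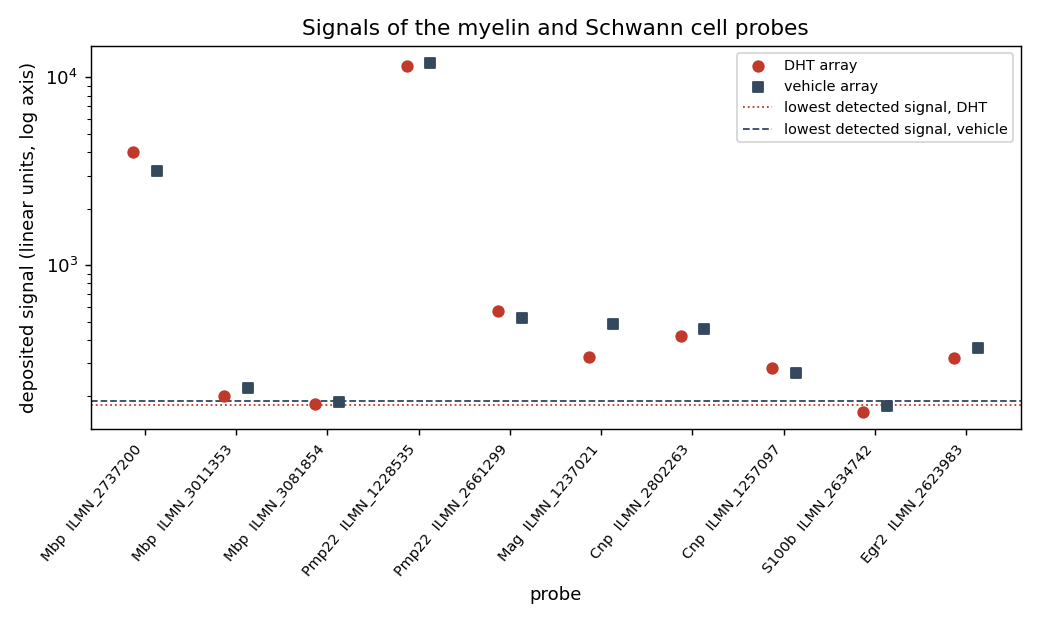
Deposited signal of each of the 10 probes on the DHT array (circles) and the vehicle array (squares), on a log axis, with lines at the lowest signal detected on each array. The first Mbp probe is higher on the DHT array, the Mag probe is lower, and the S100b probe lies below both lines.

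Among the 4 measured myelin proteins of the set, Mbp had the largest positive difference. It encodes myelin basic protein, which holds the inner faces of the myelin membrane together. The probe ILMN_2737200 had a deposited signal of 3992 on the DHT array and 3166 on the vehicle array. The log2 difference was 0.58, a fold of 1.49, and 0.56 without background correction. This difference was above those of 86.4% of all measured genes.

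The remaining Mbp probes were close to background. ILMN_3011353 had 201 on the DHT array and 221 on the vehicle array, and its log2 difference was -0.02. ILMN_3081854 had 182 on the DHT array, with a detection p of 0.00877, and 186 on the vehicle array, with a detection p of 0.0125. It was thus detected on the DHT array alone. The annotation ties both of these probes to another Mbp transcript record than that of ILMN_2737200. The gene also gives rise to the longer golli transcripts, which start upstream and are made in other cells, including immune cells. The 2 probes detected on both arrays differed by 0.60 in their log2 difference, more than the probe-to-probe SD, so the difference of Mbp rests on 1 probe.

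Mag was the one measured gene of the set that was lower on the DHT array. It encodes myelin-associated glycoprotein, an adhesion molecule on the myelin membrane that faces the axon. Its single probe had a signal of 323 on the DHT array and 485 on the vehicle array. The log2 difference was -0.54, a fold of 1.45 lower, and only 17.4% of measured genes had a more negative one. Without background correction the fold was 1.28. With the arrays scaled to equal medians the difference was -0.70, past 1.5-fold, where all measured genes had a median of -0.13. On the deposited signals as they stand it was -0.59, also past 1.5-fold, where that median was -0.21.

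Pmp22, a membrane protein of compact myelin that fibroblasts also make, had signals on both arrays far above the lowest detected ones. Probe ILMN_1228535 had 11499.9 on the DHT array and 11870.2 on the vehicle array, and a log2 difference of 0.16 after normalization. The second probe, ILMN_2661299, had 569.5 on the DHT array and 526 on the vehicle array, with a log2 difference of 0.49. Both probes were thus positive after normalization, and they differed from each other by 0.33.

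Cnp encodes an enzyme that cleaves cyclic nucleotides and that lies in the uncompacted parts of the myelin sheath. Probe ILMN_2802263 had 422 on the DHT array and 457 on the vehicle array, and a log2 difference of 0.17. Probe ILMN_1257097 had 282 on the DHT array and 267 on the vehicle array, and a log2 difference of 0.49, or 0.26 without background correction. Like those of Pmp22, both probes were positive after normalization. The 4 measured myelin proteins had a median log2 difference of 0.16, with 3 positive and 1 negative.

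**Figure D2:**
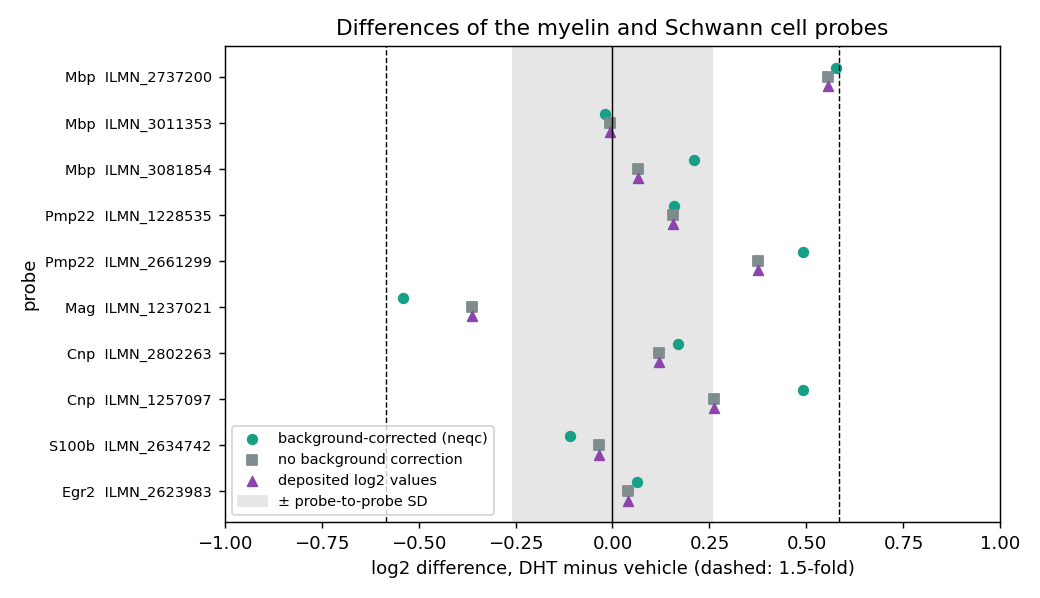
Log2 difference, DHT minus vehicle, of each of the 10 probes with background correction (circles), without it (squares) and in the deposited log2 values (triangles). Dashed lines mark 1.5-fold and the grey band the probe-to-probe SD of 0.26. Every probe lies between the dashed lines, from -0.54 for Mag to 0.58 for Mbp.

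S100b, a calcium-binding protein used as a marker of Schwann cells and also made by fat cells, was not well above background on either array. Its signals were 165 on the DHT array and 178 on the vehicle array, with a detection p of 0.0514 on the DHT array and 0.0263 on the vehicle array. Its difference is plotted above with those of the other probes but is not read as a change. At this brightness a fall or a small rise of S100b could not be seen.

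Of the regulators, Egr2 was measured and was close to equal on the arrays. Egr2 is a zinc finger factor that switches Schwann cells to the making of myelin, and growth signals also induce it briefly in other cells. Its probe had 322 on the DHT array and 361 on the vehicle array, and a log2 difference of 0.06. Scaling the arrays to equal medians turned this to -0.09, where the median of all measured genes was itself -0.13, so that Egr2 lay 0.04 above it. Of the myelin proteins and Egr2, 5 genes together, 4 were positive after normalization and Mag was negative. Whether myelin proteins and regulators part by direction cannot be told from 1 measured regulator whose sign changed with the scaling.

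Nab2, which binds Egr2 and restrains it, was higher on the DHT array with a log2 difference of 0.69, from signals of 271 on the DHT array and 241 on the vehicle array. Without background correction its fold was 1.27. Its relative Nab1 had a difference of -0.23, and the other detected probes of Nab1 ran from -0.51 to 0.37. Pou3f1, which acts before Egr2 in the promyelinating cell, had a difference of -0.30.

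Among the immediate early genes, a class of fast response genes to which Egr2 belongs, 7 of 12 were measured, 2 were higher by 1.5-fold and 1 lower, with a median of -0.02. Ier3 (0.66) and Zfp36 (0.86) were higher and Fos (-0.78) lower. Egr1 had a difference of -0.28 and Dusp1 of -0.16.

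Of 12 other genes of myelin proteins 5 were measured, 1 was higher by 1.5-fold and 0 lower, with a median of 0.37. Without background correction 0 of these 5 passed 1.5-fold. Ncmap, an adhesion protein of noncompact myelin, had signals of 543 on the DHT array and 440.4 on the vehicle array, and was 1.67-fold higher on the DHT array. Its uncorrected fold was 1.46. Drp2, a partner of periaxin at the outer Schwann cell membrane, had a difference of 0.37, and Mal, a proteolipid of myelin membranes that epithelia also make, one of 0.51, with its second probe at 1.31. The lipid carrier Pmp2 (-0.06) and the tetraspanin Cd9 (0.10) were nearly equal. Gjb1, the gap junction protein of the sheath, was detected on neither array.

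Among the enzymes of the galactolipids of myelin, Fa2h was higher. Fa2h, which adds a hydroxyl group to the fatty acids of these lipids and is also made in skin, had signals of 675 on the DHT array and 441 on the vehicle array and was 2.19-fold higher. Cers2, which makes long-chain ceramides in many tissues, had a difference of -0.29. All 4 enzymes were measured, 1 was higher by 1.5-fold and 0 lower, with a median of 0.02.

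Among further regulators of Schwann cells, Jun and Zeb2 were lower. Jun, which holds Schwann cells in the unmyelinated and repair states and is made in most cells, had signals of 340.3 on the DHT array and 839 on the vehicle array, and was 2.69-fold lower. Zeb2, a repressor that Schwann cells need in order to make myelin and that macrophages and endothelium also make, had signals of 873 on the DHT array and 1789 on the vehicle array, and was 1.83-fold lower. Of the 15 genes on this list 9 were measured, 1 was higher by 1.5-fold and 2 were lower, with a median of -0.25. Yap1, a growth regulator of many cells, had a difference of -0.25.

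Markers of immature and non-myelinating Schwann cells were mostly below detection, with 7 of 11 detected on neither array. Gap43, a membrane protein of growing axons and of immature Schwann cells, had signals of 165 on the DHT array and 381 on the vehicle array. It was not detected above background with DHT. It was at least 3.89-fold lower on the background-corrected scale with the offset of 16. Its log2 difference was -1.77 with an offset of 50, smaller than that bound, and its fold was 2.09 without correction. Bounds of this kind set the signal against the lowest one detected on the array without detection, or the probe's own where that is higher, and hold for the offset of 16 alone. Ncam1, an adhesion molecule also made by young muscle fibres, was 2.25-fold lower, with signals of 320.4 on the DHT array and 672 on the vehicle array. Scn7a, a sodium channel of non-myelinating Schwann cells, was 1.78-fold higher (1.24-fold uncorrected), and the neurotrophin receptor Ngfr had a difference of -0.01. Of the 4 measured markers, 1 was higher and 2 were lower, with a median of -0.59, or -0.01 for the 3 detected on both arrays.

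Ligands and receptors of Schwann cells gave few values. Of 11 genes 5 were measured, 1 was higher by 1.5-fold and 1 lower, with a median of 0.24. Itgb4, a laminin receptor subunit that epithelia also make, was 1.95-fold higher, with its second probe at 1.09 on the log2 scale. Its partner Itga6 was detected on the vehicle array alone and was at least 1.96-fold lower with the same correction. Its log2 difference was -0.70 with an offset of 50, again smaller than the bound, and its fold was 1.31 without correction. The signal Dhh, which Schwann cells send to the nerve sheath, had a difference of 0.24. Erbb3, the neuregulin receptor of Schwann cells, was not analysed here.

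Over these 5 lists together, 27 of 53 genes were measured, 5 were higher and 5 lower by 1.5-fold, and the median was 0.10. That is 10 of 27 genes past 1.5-fold, beside 29.2% of all measured genes. Without background correction 2 were higher and 4 lower, beside 6.74% and 8.43% of all measured genes.

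**Figure D3:**
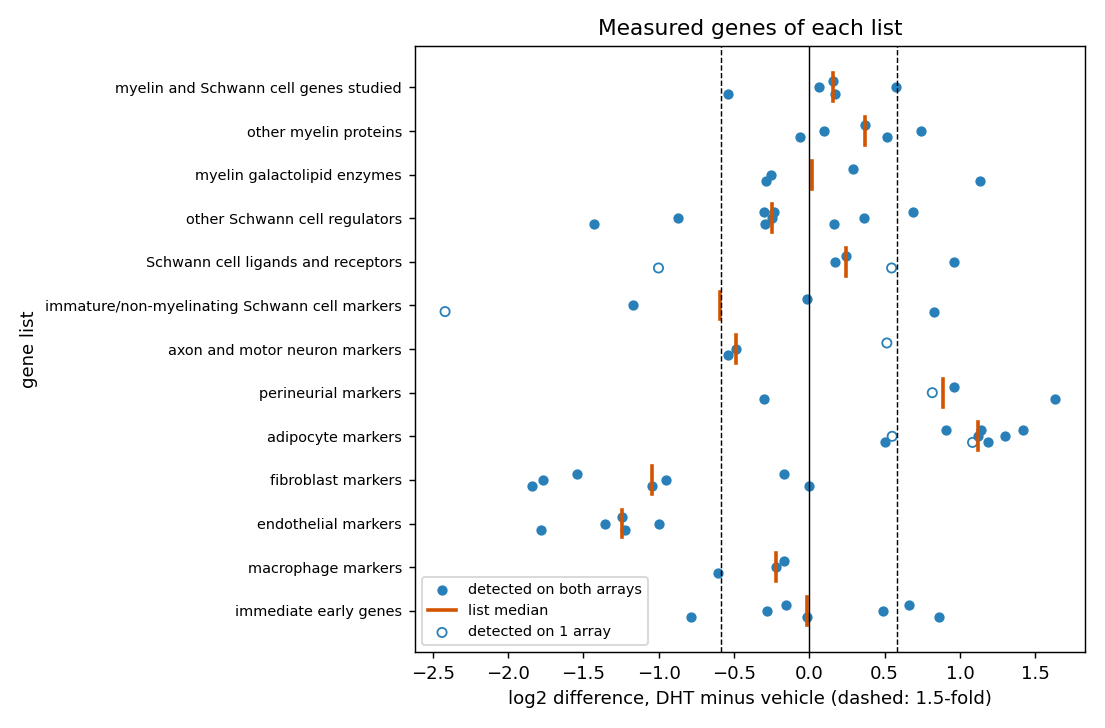
Log2 difference, DHT minus vehicle, of each measured gene by list, with filled points for genes detected on both arrays, open points for genes detected on 1 array and a bar at the list median. The 5 measured genes of the set lie between the dashed 1.5-fold lines around a median of 0.16. Of the 27 measured genes of the other Schwann cell and myelin lists, 10 lie beyond these lines. The fibroblast and endothelial medians are -1.05 and -1.25 and the adipocyte median is 1.12.

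Markers of other cells were checked beside the set. The oligodendrocyte markers, which would mark myelin of the central nervous system, were detected on neither array for 6 of 6 genes, and so were 4 of 4 markers of melanocytes, which also use Sox10. Of 13 axon and motor neuron markers 10 were detected on neither array, Nefl among them. Of the 3 measured, 0 passed 1.5-fold. Stmn2 and Uchl1, detected on both arrays, had differences of -0.54 and -0.49, and Isl1, detected on the DHT array alone, had one of 0.51. The fibre genes Ckm, Acta1, Myh4, Tnnt3, Tnni2, Actn3 and Pvalb, all 7 of them, were detected on both arrays.

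Markers of several cell types that share genes with the set differed between the arrays. Of 12 adipocyte markers 9 were measured, 7 were higher by 1.5-fold and 0 lower, with a median of 1.12. The higher ones were Adipoq (1.42), Lep, Cidec, Scd1, Dgat2, Plin1 and Cidea (0.91). Plin1 was detected on the DHT array alone, and its fold without background correction was 1.29. Without that correction 6 of the 9 were higher by 1.5-fold. Fabp4 and Retn were detected on neither array. The summed signal of the measured adipocyte markers was 23346 on the DHT array and 12712 on the vehicle array. All 7 fibroblast markers were measured, and 5 were lower and 0 higher. Their median was -1.05. The lower ones were Col1a2 (-1.84), Col1a1 (-1.77), Col3a1, Lum and Dpt (-0.95). Dcn, near the top of the signal scale, was at 0.00, with its second detected probe at 0.31. The summed signal of the fibroblast markers was 65940.3 on the DHT array and 107733 on the vehicle array. Dcn made up 45751.8 and 49856.8 of these sums. Of 6 endothelial markers 5 were measured and all 5 were lower, Cdh5 (-1.78), Tie1, Emcn, Esam and Pecam1, with a median of -1.25. Their summed signal was 4463 on the DHT array and 11583 on the vehicle array. Of 5 macrophage markers 3 were measured and 1 was lower, Mrc1 at -0.60, while Cd163 was at -0.17. The part of these cells in the values of S100b, Pmp22, Zeb2 and Fa2h was not tested.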

How the data were processed

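Tibialis anterior muscle was measured on Illumina bead arrays, 1 for DHT and 1 for vehicle. Per the labels' protocols, RNA came from a Trizol extraction, and 0.55 µg of it was made into biotin-labelled cRNA. The authors deposited a signal intensity per probe, linear and not normalized, with a detection p-value beside it per the file headers. The series values they deposited are log2 values. They matched log2 signals after quantile normalization to within 0.000654, genes were not centred, and both columns had a median of 7.43. The submitters' processing notes name GenomeStudio 2011.1, with no role given.

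The neqc function of limma 3.58.1 (R 4.3.3) corrected and quantile normalized the signals, with background inferred from the detection p-values and an offset of 16. This step was tested on simulated data of equally bright arrays. The probes given a change there were, before it, brighter than those of Mag, Cnp and Egr2. The simulation thus does not cover genes as dim as these or arrays of unequal brightness. The arrays held 25697 probes each, with total signals of 2.65e+07 (DHT) and 2.99e+07 (vehicle) and 45.7% and 46.5% of probes detected. Of these probes 23978 had 1 gene symbol, 0 had several and 1719 had none. Of their Entrez identifiers, 23962 matched the RefSeq table of GRCm38.p6. A gene's value is that of its detected probe with the highest mean. Named genes are all members with every probe, and of each further list those past 1.5-fold, the 2 with the highest values and a fixed few. The members and lists were chosen with earlier results of these data known. The number of arrays limits the precision. Python 3.11.15, pandas 2.3.3 and matplotlib 3.10.9 were used for tables and plots.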

Additional observations from a re-analysis of the deposited data

How the results depend on the processing

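The 5 main results were recomputed under 8 alternatives. These were no background correction, an offset of 50, equal medians, a detection p of 0.05, means over probes, genes detected on both arrays, genes at their bound, and the deposited values. All 5 measured members were detected on both arrays, so the settings on detection on both arrays and on bounds could not change the member results. The deposited values nearly repeat the setting without background correction, from which they differed by at most 0.000654. Fewer than 8 separate checks of the members were thus made. With equal medians and no quantile normalization, 1 member was at least 1.5-fold lower, Mag at -0.70, where the median of all measured genes was -0.13. In the main setting the medians are smaller than the probe-to-probe SD, so their stability is not judged and only their ranges are given. The median of the members ran from 0.00 to 0.26, that of the myelin proteins from 0.05 to 0.29, and that of the other Schwann cell and myelin genes from -0.03 to 0.13. Mbp moved to 0.26 as a mean over its detected probes. The detection p of 0.05 added S100b to the measured members, and their median was then 0.11. Of all measured genes 2574 passed 1.5-fold, 1180 higher and 1394 lower. Without background correction 1337 did, 594 higher and 743 lower, and with equal medians 2664 did, 844 higher and 1820 lower. No paired analysis was possible because each group had 1 array. Signals close to the lowest detected one, as for S100b and 2 Mbp probes, leave differences hard to see.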

Other observations

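Markers of the perineurium, the cell layer around nerve bundles, were measured for 4 of 4 genes. Of these, 3 were higher by 1.5-fold and 0 lower, beside 13.4% and 15.8% of all measured genes. Their median log2 difference was 0.89. Without background correction 2 were higher, beside 6.74% of all measured genes, and the median was 0.51. The glucose transporter Slc2a1 had signals of 1079 on the DHT array and 512 on the vehicle array and was 3.10-fold higher. Itgb4, also counted among the Schwann cell ligands and receptors above, was 1.95-fold higher. Lypd2 was detected on the DHT array alone and was at least 1.72-fold higher on the background-corrected scale with the offset of 16, a bound for that setting alone, and 1.22-fold higher without background correction. The tight junction gene Cldn1 had a difference of -0.30. These genes are also made by epithelia and other cells, and their source in these samples was not tested.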
